A study of Mus musculus with 5480 samples.

Results

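Elastin and 9 genes of the microfibrils and fibulins around it were followed through the mesenchyme of the developing mouse lung. The genes were chosen by name: elastin itself (Eln), the fibrillins Fbn1 and Fbn2, the microfibril-associated proteins Mfap2 and Mfap4, the fibulins Fbln1, Fbln2 and Fbln5, and Efemp1 and Efemp2, which encode fibulin-3 and fibulin-4. All 10 were among the 18072 genes of the count table. The study sorted single cells from the distal lung of 10 mice and read each cell's RNA with a plate-based method in which Tn5 transposase cuts and tags the cDNA. There were 5 groups of 1 female and 1 male mouse each: embryonic day 18.5 (E18.5), postnatal day 1 (P1), day 7 (P7) and day 21 (P21) under the treatment labelled normal, and P7 under the treatment labelled hyperoxia, which is air enriched in oxygen. Strain, genotype, oxygen concentration and length of exposure are not given in the labels used here, so normal animals are called that and no more. The 16 cell subtype names are the authors' own, read from the labels.

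Elastic fibres give the lung its recoil. Cells secrete tropoelastin, the product of Eln, which gathers into globules, is laid onto a scaffold of fibrillin microfibrils and is cross-linked there by lysyl oxidases. Fibulin-4 and fibulin-5 bind both tropoelastin and the cross-linking enzymes and guide that assembly, while Mfap2 and Mfap4 proteins sit on the microfibrils. In rodents the main wave of lung elastin deposition accompanies the division of the airspaces by new septa after birth, and fibrillin-2 is known as the fibrillin of fetal tissue, with fibrillin-1 present throughout life.

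The table held 5480 cells with between 39358 and 5177020 reads each, at a median of 774305, and between 294154721 and 671766116 reads per mouse. Reads carried no molecular identifiers, so levels are CPM, counts per 1000000 of the summed reads of a mouse's cells of one kind, for kinds with at least 10 cells in that mouse, and intervals on read numbers cover counting error only. The mouse was the replicate, with 2 mice per group in every comparison, and p-values rest on the spread between those few animals. By the run that held most of a mouse's cells (all but 0 to 18 of them), the 4 normal males shared 1 sequencing run. Normal females at E18.5 and P1 shared another, normal females at P7 and at P21 had a run each, and each hyperoxic mouse had a run of its own. Run and hyperoxia therefore cannot be told apart. Adventitial fibroblasts at P21 carried their own markers, with 6 adventitial markers at a summed 16655 to 20701 CPM against 75.8 to 176 CPM for 6 contractile markers. Some subtypes carried more of another list than of their own. Myofibroblasts held a median of 11751 CPM of contractile against 7837 CPM of myofibroblast markers, proliferating myofibroblasts 7780 against 5138 CPM, and airway smooth muscle at P21 2201 to 2624 CPM of contractile against 10076 to 13879 CPM of myofibroblast markers. Of all cells, 69 had come from a CD31 sort and 2 from a CD45 sort.

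Eln was read from nearly every kind of mesenchymal cell. It took 0.237% of all reads and had at least 1 read in 90.2% of cells. Mfap4 took the largest share of the 10 genes, 1.07% of all reads, followed by Eln, Mfap2 at 0.156% and Fbn1 at 0.0725%. Fbn2, Fbln2 and Efemp1 were sparse, with a read in 37.3%, 10.0% and 11.6% of cells. Per kilobase of exon at P7, the highest mean levels were 11863 CPM per kb for Mfap4 in early alveolar fibroblasts, 2176 for Mfap2 in early adventitial fibroblasts, 1494 for Eln in vascular smooth muscle and 126 for Fbn1 in early adventitial fibroblasts. Fbn2 reached only 11.8 CPM per kb in myofibroblasts at that age.

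**Figure D1:**
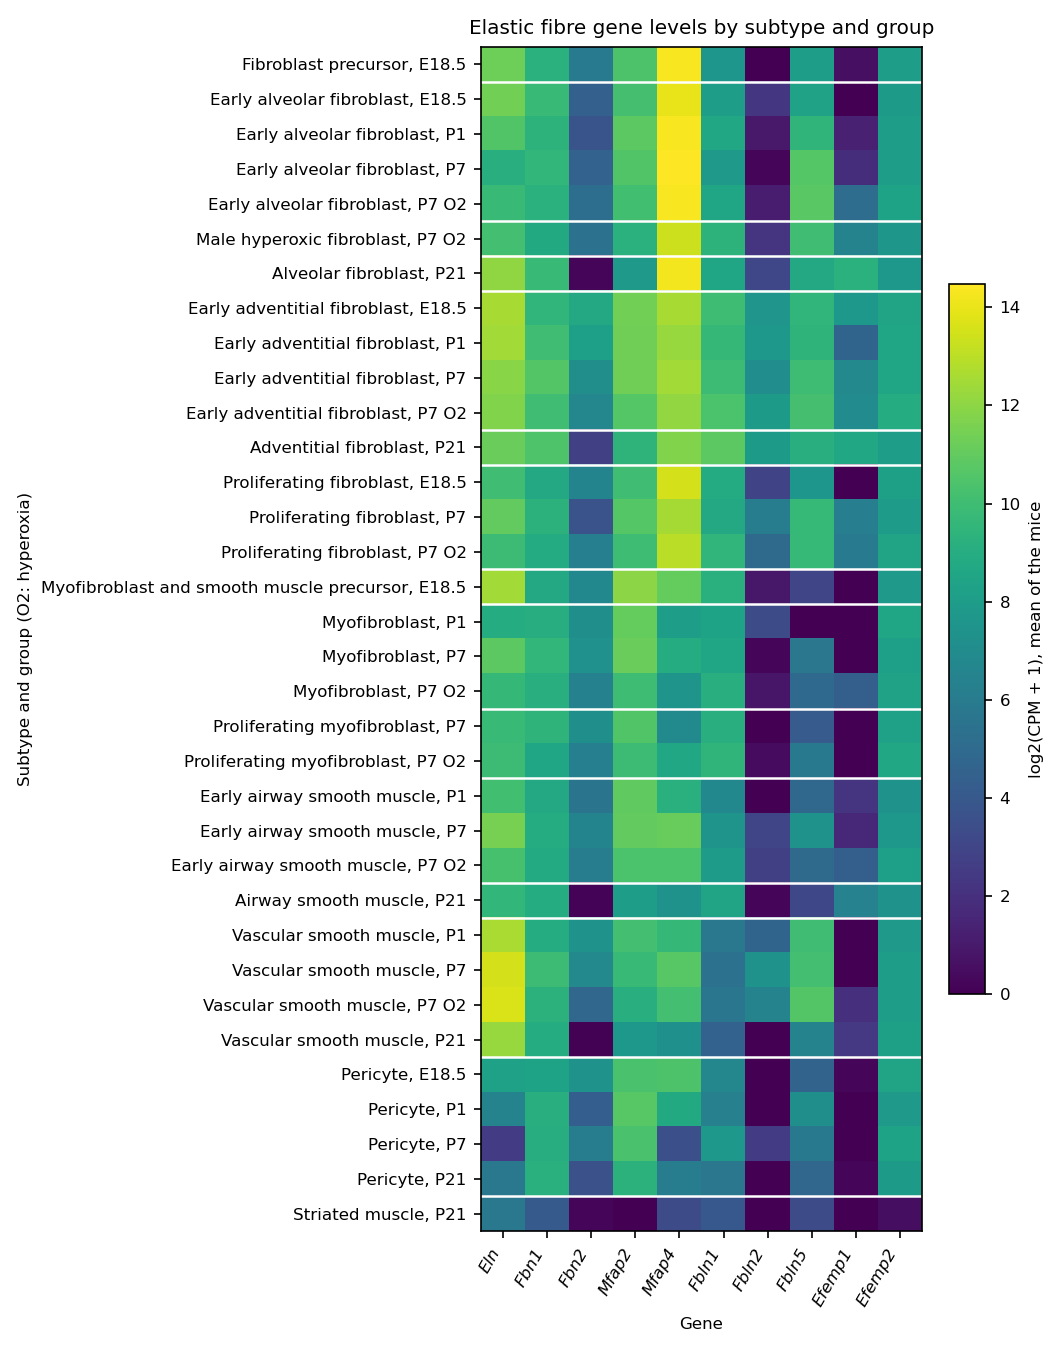
Mean level of each of the 10 genes, as log2(CPM + 1) over the mice of a group, by authors' subtype and group. Pairs of subtype and group where no mouse had enough cells are not drawn. Mfap4 is highest in the alveolar and precursor fibroblasts, Eln in vascular smooth muscle at P7, and Efemp1 in alveolar fibroblasts goes from 3.61 and 1.87 CPM at P7 to 614 and 570 CPM at P21.

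Vascular smooth muscle, the muscle of vessel walls, had the highest mean Eln level at P1, P7 and P21. Its level at P7 was 13314 CPM in the female and 10880 CPM in the male, a mean of 12097 ± 1721 CPM (SD, n = 2). Early adventitial fibroblasts came next at 3861 ± 1127 CPM (n = 2), with both mice below both vascular values. Early airway smooth muscle at 2901 ± 430 CPM overlapped them, and myofibroblasts stood at 1852 ± 392 CPM. Below these came proliferating myofibroblasts at 861 ± 90.3 CPM and early alveolar fibroblasts at 568 ± 161 CPM. Pericytes, which wrap capillaries, had almost none at P7, with 0.149 and 9.99 CPM. These differences between subtypes are a description without a test, because the subtypes had been named from the expression of the same cells.

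The order differed at other ages. At E18.5 early adventitial fibroblasts, at 6053 ± 1914 CPM, overlapped the myofibroblast and smooth muscle precursors at 5633 ± 842 CPM. Early alveolar fibroblasts at 2709 ± 968 CPM overlapped fibroblast precursors at 2470 ± 10.3 CPM, and pericytes stood lowest at 308 ± 124 CPM (n = 2 throughout). At P1 vascular smooth muscle, at 6264 ± 1241 CPM, and early adventitial fibroblasts, at 5630 ± 2487 CPM, overlapped. At P21 vascular smooth muscle had 4859 ± 520 CPM and alveolar fibroblasts 4229 ± 633 CPM, again overlapping, while adventitial fibroblasts had 2334 ± 327 CPM and airway smooth muscle 774 ± 7.05 CPM.

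Few vascular cells held a large part of the Eln level summed over cells. Each cell entered this sum as its own CPM, so the amount of RNA per cell does not count in these shares. At P7 vascular smooth muscle was 4.46% of the female's cells and 5.44% of the male's, and it held 23.5% and 30.8% of the Eln level summed over cells. Myofibroblasts were 25.6% and 32.3% of cells and held 29.2% and 28.3%. Early alveolar fibroblasts were 36.0% and 25.8% of cells and held 9.95% and 6.15%. By P21 alveolar fibroblasts, at 34.5% and 22.2% of cells, held 59.3% and 40.9%. Shares of cells depend on the sort as well as on the tissue.

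**Figure D2:**
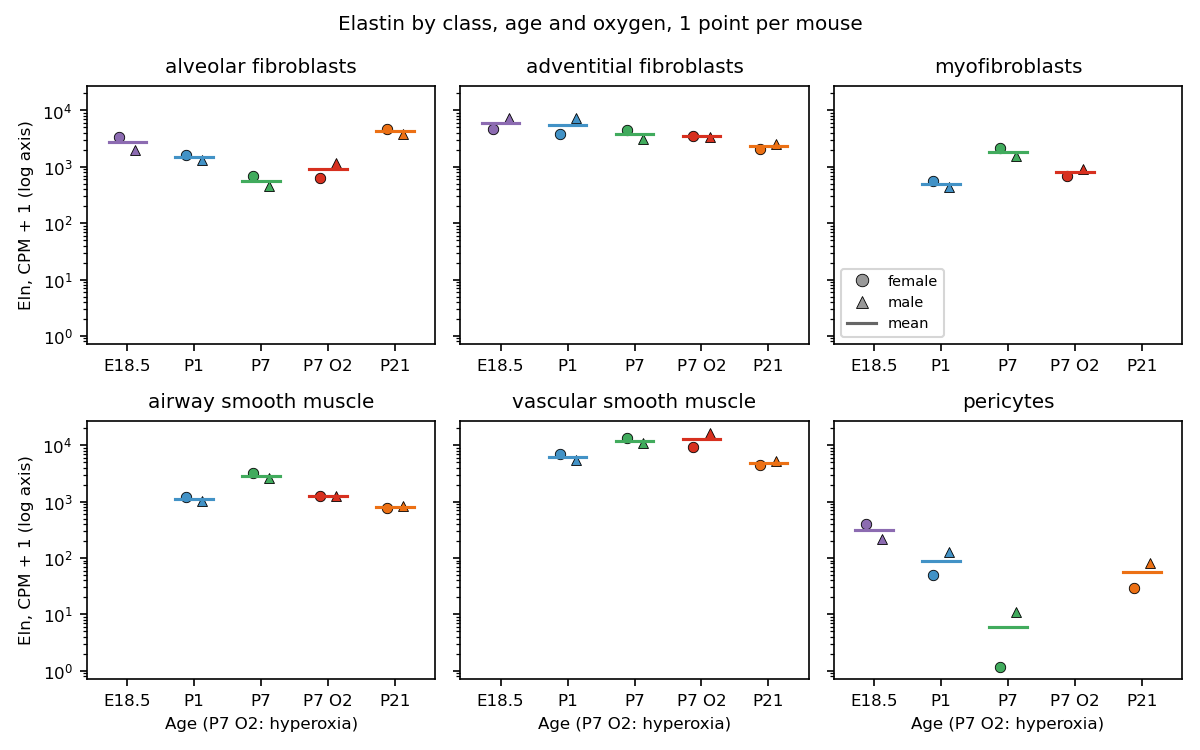
Eln level in CPM on a log axis of CPM + 1 for each cell class and group, with circles for the female, triangles for the male and a bar at their mean. Groups where no mouse had enough cells of a class are empty. Alveolar fibroblasts run from 454 and 681 CPM at P7 to 3791 and 4675 CPM at P21, while airway smooth muscle runs from 2596 and 3205 CPM to 847 and 772 CPM.

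Eln was higher at P21 than at P7 in alveolar fibroblasts, those of the airspace wall, and in pericytes. It was lower in smooth muscle and in adventitial fibroblasts. Only the alveolar difference passed the test. In alveolar fibroblasts (the early and the mature subtype joined) the female and male had 681 and 454 CPM at P7 and 4675 and 3791 CPM at P21. Neither P7 mouse came near either P21 mouse. Eln rose by 3.21 on the log2 scale (SE 0.37, adjusted p = 0.0415 by edgeR's quasi-likelihood test with Benjamini-Hochberg adjustment over all genes). Within the shared run, the male change was 3.06 on the log2(CPM + 1) scale. The call did not survive the loss of any 1 mouse at P1, P7 or P21, normal or hyperoxic, and the adjusted p then reached as high as 0.75. In airway smooth muscle Eln stood at 3205 and 2596 CPM at P7 and 772 and 847 CPM at P21, without overlap, and the log2 difference of -1.48 (SE 0.30) had an adjusted p of 0.0562. Vascular smooth muscle had 13314 and 10880 CPM at P7 against 4491 and 5226 CPM at P21, also without overlap, with a log2 difference of -1.16 (SE 0.44) and an adjusted p of 0.66. Adventitial fibroblasts went from 3146 to 4548 CPM at P7 to 2052 to 2565 CPM at P21. Pericytes had 0.149 to 9.99 CPM and then 28.1 to 80.8 CPM. Summed over all cells of a mouse, Eln barely differed, at 2294 and 1870 CPM against 2647 and 2207 CPM (log2 difference 0.44, SE 0.29, adjusted p = 0.384). In such sums, fewer cells of a type and less RNA per cell cannot be told apart.

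Myofibroblasts, the contractile fibroblasts of the growing septa, airway smooth muscle and vascular smooth muscle had more Eln at P7 than at P1. Myofibroblasts stood at 569 and 433 CPM at P1 and at 2129 and 1575 CPM at P7. The log2 difference was 1.84 (SE 0.35, unadjusted p = 0.00136), and the adjusted p of 0.38 missed the threshold of 0.05. Airway smooth muscle stood at 1192 and 1018 CPM, then 3205 and 2596 CPM (log2 difference 1.34, SE 0.30, adjusted p = 0.502). Vascular smooth muscle stood at 7141 and 5386 CPM, then 13314 and 10880 CPM (log2 difference 0.98, SE 0.44, adjusted p = 0.991). None of these 3 classes overlapped between the ages, though the share of all genes with that pattern was not counted. Alveolar fibroblasts had the opposite sign, from 1623 and 1329 CPM to 681 and 454 CPM (log2 difference -1.42, SE 0.34, adjusted p = 1). Before birth, early alveolar fibroblasts had held 3394 and 2024 CPM. That E18.5 pool was small, with 14 and 24 cells, and the female's library also carried 1031 CPM of the 6 epithelial markers, with 4 of the 6 at 0, against 25.9 CPM in the male and 100 to 121 CPM at P1. The part of those reads in the result was not tested.

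None of the 10 genes passed the adjusted threshold between P1 and P7 in any class by edgeR, where 0% of all genes did so in each of the 6 classes and 0.22% in all mesenchymal cells summed. At an unadjusted p under 0.05, alveolar fibroblasts had 1 of 10 genes past it (2.36% of all genes), adventitial fibroblasts 2 of 10 (5.6%) and pericytes 2 of 9 tested (3.99%). Myofibroblasts had 2 of 9 (8.01%), airway smooth muscle 3 of 10 (5.25%), vascular smooth muscle 1 of 10 (3.73%) and all cells 3 of 10 (11.1%). The DESeq2 test, which made far more calls across the genome here, called 0 in alveolar fibroblasts (1.43% of all genes), 1 in adventitial fibroblasts (2.89%), 2 in pericytes (5.02%), 3 in myofibroblasts (6.5%), 2 in airway smooth muscle (3.42%), 0 in vascular smooth muscle (3.68%) and 2 in all cells (6.02%). Its calls included Eln in myofibroblasts, airway smooth muscle and pericytes. Pericytes had 48.8 and 125 CPM of Eln at P1 and 0.149 and 9.99 CPM at P7, and their Mfap4 level was 240 and 641 CPM at P1 and 0.548 and 21.0 CPM at P7.

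The microfibril scaffold was marked at P21 by the near loss of Fbn2 and a lower Mfap2. Fbn2, the fetal fibrillin, was highest before birth in early adventitial fibroblasts, with 403 and 436 CPM at E18.5. In airway smooth muscle it had 87.4 and 96.7 CPM at P7 and 0.166 and 0.0621 CPM at P21. Only 12 reads remained there against 15030, a ratio of 776 with a counting interval of 444 to 1502. Fbn2 fell in that class (adjusted p = 0.00379, edgeR), and it stayed called in all 13 alternatives tried. Vascular smooth muscle had 178 and 44.8 CPM at P7 against 0.137 and 0 CPM at P21, from 3 reads against 5910, a ratio of 1571 (537 to 7618). Fbn2 fell there too (adjusted p = 0.0441), though leaving out either P1 mouse, either P21 mouse or the P7 female ended that call.

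Alveolar fibroblasts, which had little Fbn2 at any age, had 15.7 and 28.5 CPM at P7 and 0.066 and 0.264 CPM at P21, a ratio of 168 (114 to 257) that missed the threshold (adjusted p = 0.593). Adventitial fibroblasts had 175 and 96.7 CPM and then 14.9 and 1.54 CPM (log2 difference -4.17, SE 0.78, adjusted p = 0.0837). Pericytes stood at 52.7 and 87.6 CPM and then 8.81 and 12.9 CPM (adjusted p = 0.955). In each of these 5 classes both P21 mice lay below both P7 mice. The share of all genes that did so in all 5 was not counted, and the classes come from the same mice. Over all cells Fbn2 was 93.1 and 102 CPM at P7 and 6.39 and 3.29 CPM at P21, a fall of 4.16 on the log2 scale (SE 0.33, adjusted p = 0.000187) that held in all 14 alternatives, and the male change within 1 run was -4.58 on the log2(CPM + 1) scale. Myofibroblasts held 41.1% and 48.8% of the summed Fbn2 level at P7, and no cell at P21 was labelled myofibroblast. The part of that absence in the Fbn2 fall over all cells was not tested.

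Fbn1, the other fibrillin, passed the test in no class from P7 to P21. In vascular smooth muscle it was 861 and 1055 CPM at P7 and 322 and 664 CPM at P21, with both P21 mice below both P7 mice (log2 difference -0.82, SE 0.51, adjusted p = 0.769). Alveolar fibroblasts held 830 and 714 CPM at P7 and 905 and 975 CPM at P21, adventitial fibroblasts 1453 and 1561 CPM and then 1379 and 1493 CPM, and all cells 795 and 791 CPM and then 934 and 987 CPM (log2 difference 0.50, SE 0.25, adjusted p = 0.232). The adventitial values overlapped. Airway smooth muscle had 544 and 458 CPM against 411 and 542 CPM, which also overlapped.

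**Figure D3:**
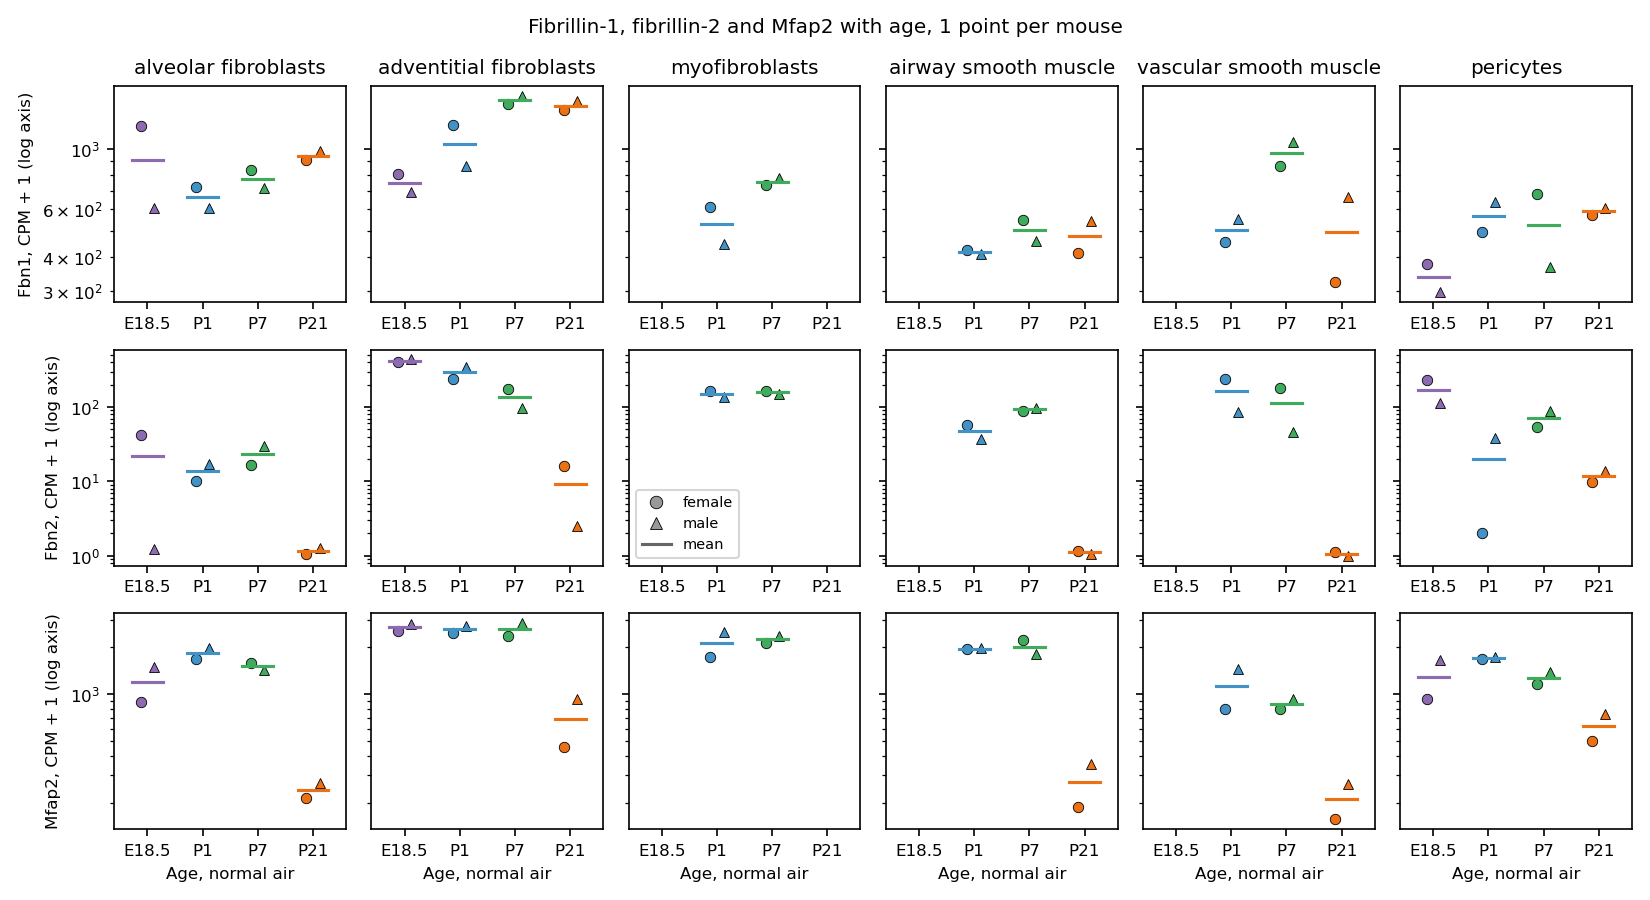
Levels of Fbn1, Fbn2 and Mfap2 in CPM on a log axis of CPM + 1, in 6 cell classes at the 4 ages under normal treatment, with circles for females, triangles for males and a bar at their mean. Ages where no mouse had enough cells of a class are empty: E18.5 and P21 for myofibroblasts, and E18.5 for airway and vascular smooth muscle. Fbn2 in airway smooth muscle drops from 87.4 and 96.7 CPM at P7 to 0.166 and 0.0621 CPM at P21, while Fbn1 in adventitial fibroblasts stays between 689 and 1561 CPM at all ages.

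Mfap2, a small microfibril glycoprotein that binds fibrillin, was highest in the precursors of myofibroblasts and smooth muscle at E18.5, with 3796 and 4188 CPM. Airway smooth muscle held 2213 and 1808 CPM at P7 and 185 and 352 CPM at P21. Mfap2 fell there by 2.58 on the log2 scale (SE 0.37, adjusted p = 0.0141), and without the P7 female the adjusted p was 0.0918. Over all cells it stood at 1817 and 1963 CPM and then 322 and 614 CPM, a fall of 1.81 (SE 0.36, adjusted p = 0.0134) that was lost without either P7 normal mouse. Alveolar fibroblasts (1580 and 1436 CPM, then 213 and 265 CPM, adjusted p = 0.199), adventitial fibroblasts (2372 and 2872 CPM, then 453 and 932 CPM, adjusted p = 0.123) and vascular smooth muscle (801 and 928 CPM, then 155 and 263 CPM, adjusted p = 0.363) had the same sign without passing. Both P21 mice were below both P7 mice in each of these classes and in pericytes, where Mfap2 was 1159 and 1382 CPM and then 496 and 748 CPM (adjusted p = 0.955). How many of all genes did the same was not counted, and the classes come from the same mice. At P7 myofibroblasts held 29.7% and 39.3% of the summed Mfap2 level, while no cell at P21 was labelled myofibroblast. The part of that absence in the Mfap2 fall over all cells was not tested.

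Mfap4, which binds tropoelastin and fibrillin, was the alveolar fibroblast gene of the set. At P7 early alveolar fibroblasts held 86.4% and 83.5% of its summed level, at 17721 and 27878 CPM, and the class kept 15854 and 21834 CPM at P21. Airway smooth muscle had 1964 and 2472 CPM at P7 and 235 and 106 CPM at P21, and Mfap4 fell there by 3.49 on the log2 scale (SE 0.43, adjusted p = 0.00863), a call lost with all classes in 1 fit (adjusted p = 0.157). The airway class was not the same in its muscle genes at the 2 ages: the 6 contractile markers summed to 16433 and 19954 CPM at P7 and to 2201 and 2624 CPM at P21, and the 6 adventitial markers to 546 and 545 CPM and then 1837 and 2638 CPM. The part of these shifts in the airway results was not tested.

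The region before the first of 2 RefSeq starts of Mfap2 is shown because Mfap2 was lower at P21 than at P7 in all 5 classes compared and in the summed cells, though past the threshold only in airway smooth muscle and the summed cells. RefSeq promoter entries matched 7 of the 10 genes. The 250 bases upstream of that start on mouse build GRCm38.p6 lie at chr4:141010431-141010680, plus strand, and capitals mark the letters GGGCGG, a GC box, searched on both strands.
Mfap2: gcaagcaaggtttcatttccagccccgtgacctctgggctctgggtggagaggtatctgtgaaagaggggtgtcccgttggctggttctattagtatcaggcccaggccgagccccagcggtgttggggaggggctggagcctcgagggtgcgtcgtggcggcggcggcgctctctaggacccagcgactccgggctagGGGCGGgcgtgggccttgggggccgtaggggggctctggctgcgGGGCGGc
It holds 2 GC boxes, a motif found in 32.7% of 32851 RefSeq promoter windows of the same length, and no TATAAA, found in 12.4%.

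Among the fibulins, Efemp1 (fibulin-3) had the largest rise past the threshold from P7 to P21. Until P7 its level was higher in adventitial than in alveolar fibroblasts. Early adventitial fibroblasts had 101 and 325 CPM at E18.5, and the adventitial class 15.8 and 32.7 CPM at P1 and 165 and 53.3 CPM at P7. Early adventitial fibroblasts held 53.2% and 59.3% of the summed Efemp1 level at P1, and 72.1% and 49.4% at P7. Early alveolar fibroblasts held 39.6% and 24.5%, then 13.0% and 21.9%. Proliferating fibroblasts held 7.23% and 14.0%, then 14.9% and 24.7%. Alveolar fibroblasts had 0 and 0.0737 CPM at E18.5, 2.36 and 0.662 CPM at P1, 3.61 and 1.87 CPM at P7 and 614 and 570 CPM at P21. The P21 mice stood far above all earlier ones. Efemp1 rose by 8.17 on the log2 scale from P7 to P21 (SE 0.87, adjusted p = 0.0368), with a male change of 7.64 on the log2(CPM + 1) scale within 1 run. Leaving out any 1 mouse other than those at E18.5 ended this call, as did a single fit of all classes (adjusted p = 0.474). With each cell thinned to 100000 reads, 3.33% and 3.62% of early alveolar fibroblasts had an Efemp1 read at P7 against 63.1% and 47.8% of alveolar fibroblasts at P21, and unthinned shares were 4.13% and 5.44% against 64.1% and 47.8%. In myofibroblasts at P7 the thinned share was 0% in both mice.

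Airway smooth muscle had 0 and 4.00 CPM of Efemp1 at P7 and 77.8 and 77.6 CPM at P21. Over all cells Efemp1 stood at 18.3 and 12.2 CPM and then 320 and 309 CPM, a rise of 4.55 on the log2 scale (SE 0.48, adjusted p = 0.000608) that held in all 14 alternatives. At P21 alveolar fibroblasts held 65.8% and 45.2% of the summed Efemp1 level, and adventitial fibroblasts 30.7% and 48.9%.

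The upstream sequence of Efemp1 is shown beside this difference. It covers chr11:28852955-28853204 on GRCm38.p6, plus strand, and capitals mark the motifs TGANTCA and GGGCGG, the latter read here on the other strand. TGANTCA is a loose form of the AP-1 site that takes any middle base, here A.
Efemp1: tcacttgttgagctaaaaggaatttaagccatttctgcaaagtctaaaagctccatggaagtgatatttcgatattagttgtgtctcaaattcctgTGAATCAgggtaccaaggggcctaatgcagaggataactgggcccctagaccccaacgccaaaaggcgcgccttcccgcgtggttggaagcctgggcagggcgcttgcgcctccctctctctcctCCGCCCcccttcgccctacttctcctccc
A search on both strands gave 1 match to TGANTCA, a motif in 6.75% of all 32851 windows and in none of the first windows of the other 6 members matched, and 1 GC box. No TATAAA was found. A match describes letters in this window and says nothing of binding.

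Fbln1 and Fbln2 also rose from P7 to P21 over all cells. Fbln1, a fibulin of elastic fibres and basement membranes, had 413 and 293 CPM and then 857 and 715 CPM (log2 change 1.38, SE 0.27, adjusted p = 0.012), a call lost without the P7 normal male. Fbln2 had 23.6 and 24.8 CPM and then 95.7 and 75.0 CPM (log2 change 2.02, SE 0.35, adjusted p = 0.00687), lost without either P7 normal mouse. Early adventitial fibroblasts were 8.09% and 9.65% of cells at P7, and adventitial fibroblasts 29.2% and 27.3% at P21. Within the joined class Fbln1 was 1222 and 676 CPM and then 1863 and 1671 CPM (adjusted p = 0.279), and Fbln2 was 190 and 76.9 CPM at P7 and 261 and 208 CPM at P21.

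In vascular smooth muscle the sign was opposite. Its Fbln2 was 46.2 and 279 CPM at P7 and 0 in both mice at P21, from 8740 reads against none, so at least 2323-fold lower with a floor of 3 reads over the group. Fbln2 fell there (adjusted p = 0.0441), and the call was lost without the P21 female, the P21 male or the P7 male, and with all classes in 1 fit. Fbln5, which tethers elastin to cells, stood at 1251 and 850 CPM in vascular smooth muscle at P1, at 1037 and 1191 CPM at P7 and at 143 and 35.5 CPM at P21 (log2 difference from P7 -3.74, SE 0.62, adjusted p = 0.0726). Early alveolar fibroblasts held 76.5% and 59.0% of its summed level at P7, with the class at 2063 and 1176 CPM, then 321 and 579 CPM at P21. Neither class overlapped between those ages, and the share of all genes without overlap was not counted. Myofibroblasts had no Fbln5 read at P1 and 18701 reads at P7 (70.0 and 33.2 CPM), at least 865-fold higher, though its fitted adjusted p was 0.248. Efemp2 (fibulin-4) was the evenest of the 10 between classes: at P7 it lay between 195 and 445 CPM in all 6 classes.

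By counts, from P7 to P21 edgeR called 2 of 10 genes in alveolar fibroblasts (0.0702% of all genes), 3 in airway smooth muscle (1.13%), 2 in vascular smooth muscle (0.0886%) and 5 in all cells (9.97%). Alveolar calls were both up, against 0.0638% of all genes called upward. Muscle calls were all down, against 0.393% of genes downward in airway and 0.0403% in vascular smooth muscle. In all cells 3 were up and 2 down, against 5.39% and 4.58%. At an unadjusted p under 0.05 there were 6 in alveolar fibroblasts (7.13% of all genes), 7 in airway smooth muscle (10.5%), 6 in vascular smooth muscle (7.21%) and 6 in all cells (26.2%), and DESeq2 called 5 (7.18%), 7 (10.2%), 5 (8.49%) and 5 (21.7%). The median log2 difference of the 10 genes was -1.54 in vascular smooth muscle against -0.09 over all genes, -0.79 in airway smooth muscle against -0.09, and 0.33 in alveolar fibroblasts against -0.04. Adventitial fibroblasts had 0 calls (0.124% of all genes), 5 genes at an unadjusted p under 0.05 (10.2%) and 3 calls by DESeq2 (7.1%), Fbn2 and Mfap2 down and Fbln1 up. Pericytes had 0 of 9 (0.0504%), 3 at an unadjusted p under 0.05 (4.66%) and 1 by DESeq2 (4.67%), Eln up.

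Around birth, from E18.5 to P1, calls were fewer. Over all cells Fbln2 rose from 9.83 and 10.4 CPM to 57.0 and 25.6 CPM (log2 change 2.06, SE 0.35, adjusted p = 0.0224), 1 of 10 genes against 1.23% of all genes called in either direction and 0.926% upward. The call was lost without either E18.5 mouse or the P1 female. Early adventitial fibroblasts were 4.15% and 5.01% of cells at E18.5 and 21.8% and 11.8% at P1. Within the adventitial class Fbln2 lay between 175 and 205 CPM and then between 185 and 232 CPM. The part of the shares of cells in the rise over all cells was not tested. Fbln5 had 226 and 225 CPM and then 589 and 637 CPM (log2 difference 1.53, SE 0.33, adjusted p = 0.06), without overlap. In alveolar fibroblasts 1 of 10 was called against 6.16% of all genes in either direction and 6.1% upward: Efemp1, from 1 read at E18.5 to 762 at P1, a ratio of 21.3 with a counting interval of 3.82 to 844 (adjusted p = 0.04997). That call was lost without 9 of the 10 mice in turn, and the median over all genes in that comparison was itself 1.35.

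Adventitial fibroblasts had 0 of 10 called by edgeR in that interval (0.17% of all genes), 1 at an unadjusted p under 0.05 (9.23%) and 1 by DESeq2 (6.66%). In both cases it was Efemp1, at 101 and 325 CPM before birth and 15.8 and 32.7 CPM after it. Pericytes had 0 of 9 (0.042%), 1 at an unadjusted p under 0.05 (5.4%) and 1 by DESeq2 (7.49%), Fbn2, at 228 and 112 CPM and then 0.999 and 36.7 CPM.

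Mfap2 was lower in hyperoxic than in normal mice at P7 in all 5 classes that could be compared, although no gene of the 10 passed the adjusted threshold in any of them, where 0% of all genes did. Alveolar fibroblasts had 1580 and 1436 CPM of Mfap2 in normal mice and 1253 and 931 CPM in hyperoxic mice (log2 difference -0.57, SE 0.41). Adventitial fibroblasts had 2372 and 2872 CPM against 1792 and 1375 CPM (-0.88, SE 0.36), and myofibroblasts 2137 and 2380 CPM against 1219 and 799 CPM (-1.19, SE 0.40). Airway smooth muscle had 2213 and 1808 CPM against 1414 and 1265 CPM (-0.61, SE 0.35), and vascular smooth muscle 801 and 928 CPM against 568 and 519 CPM (-0.88, SE 0.47). In each of these classes both hyperoxic mice lay below both normal mice. The same was true of 75 of 10459 genes, 0.717%, while 2.3% lay above in all 5, and the classes come from the same 4 mice. The adjusted p values for Mfap2 ran from 0.621 to 1 over the 5 classes.

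**Figure D4:**
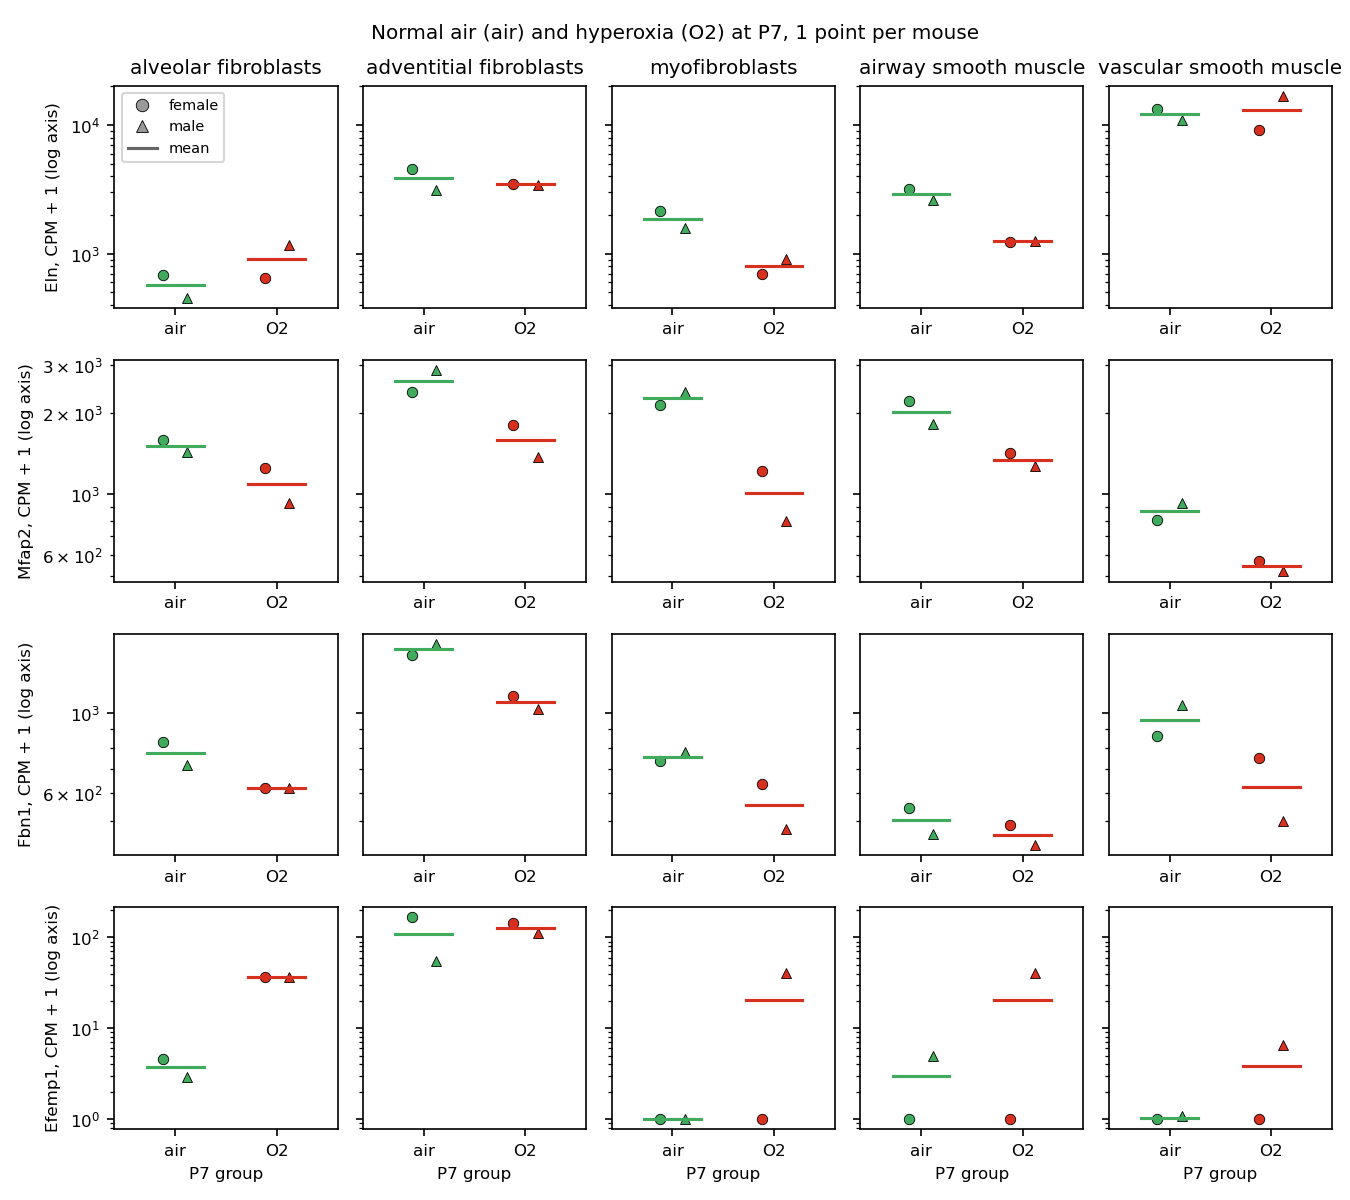
Levels of Eln, Mfap2, Fbn1 and Efemp1 in CPM on a log axis of CPM + 1, in normal and hyperoxic mice at P7 in 5 cell classes, with circles for females, triangles for males and a bar at their mean. Mfap2 is lower in both hyperoxic mice in all 5 classes, Eln in myofibroblasts is 693 and 905 CPM against 2129 and 1575 CPM, and Efemp1 in alveolar fibroblasts is 35.9 and 35.7 CPM against 3.61 and 1.87 CPM.

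For Eln the sign was not the same in all classes. Myofibroblasts had 2129 and 1575 CPM in normal mice and 693 and 905 CPM in hyperoxic mice (log2 difference -1.23, SE 0.35, unadjusted p = 0.00988, adjusted p = 0.608). Airway smooth muscle had 3205 and 2596 CPM against 1239 and 1255 CPM (-1.23, SE 0.30, unadjusted p = 0.00243, adjusted p = 1). The hyperoxic mice lay below the normal mice in both classes. Vascular smooth muscle had 13314 and 10880 CPM against 9194 and 16809 CPM, adventitial fibroblasts 4548 and 3146 CPM against 3501 and 3438 CPM, and alveolar fibroblasts 681 and 454 CPM against 641 and 1172 CPM. These 3 overlapped. Without the hyperoxic male the alveolar log2 difference turned from 0.55 to -0.036. All cells summed had 2294 and 1870 CPM against 1617 and 2161 CPM (log2 difference -0.18, SE 0.29, adjusted p = 0.842).

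Several scaffold genes were lower in hyperoxic myofibroblasts, without passing the test. In that class Fbn1 was 733 and 777 CPM against 631 and 474 CPM, Fbn2 165 and 147 CPM against 75.4 and 88.3 CPM, and Mfap4 367 and 622 CPM against 231 and 133 CPM. The 5 members Eln, Mfap2, Fbn1, Fbn2 and Mfap4 were below in both mice there, 1 was above and 4 overlapped, where 23.1% of all genes were below and 24.2% above. Airway smooth muscle had 5 below, 1 above and 4 overlapping (19.3% and 17.3% of all genes), and vascular smooth muscle 3 below, 1 above and 6 overlapping (13.5% and 22.9%). Alveolar fibroblasts had 2 below, 5 above and 3 overlapping (18.5% and 26.3%), and adventitial fibroblasts 2, 2 and 6 (16.4% and 28.9%). Fbn1 was below in 4 of the 5 classes, and Fbln1 was above in 4. The share of all genes that reach 4 of 5 was not counted, and the classes come from the same mice.

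Efemp1 was higher in hyperoxic alveolar fibroblasts, at 35.9 and 35.7 CPM against 3.61 and 1.87 CPM (log2 difference 3.66, SE 0.70, unadjusted p = 0.000859, adjusted p = 1). The mice did not overlap. Thinned shares of early alveolar fibroblasts with a read were 14.8% and 17.4% against 3.33% and 3.62%, and unthinned shares 15.1% and 18.2% against 4.13% and 5.44%. In myofibroblasts and airway smooth muscle the hyperoxic male had 39.1 and 39.2 CPM, the hyperoxic female 0 in both, and the normal male 0.00469 and 4.00 CPM. The authors placed 55 cells of the hyperoxic male, 9.98% of its cells, in a subtype named male hyperoxic fibroblast, which was not joined to the alveolar class although its 6 alveolar markers summed to 10650 CPM. Its levels were 87.3 CPM of Efemp1, 1145 CPM of Eln and 609 CPM of Mfap2, and it held 18.1% of that mouse's summed Efemp1. Hyperoxic cells also had more genes detected, with medians of 4268 in the female and 5545 in the male against 2988 and 2963 at P7 under normal treatment. Marker sums of other cell types at P7 were highest at 127 CPM in hyperoxic and 64.9 CPM in normal libraries for epithelial genes (medians 36.4 and 33.7), 98.5 and 55.0 CPM for endothelial genes (medians 8.05 and 5.19), and 654 and 218 CPM for mesothelial genes (medians 0.162 and 0.0371). For immune genes the highest were 131 and 79.8 CPM, while the median was lower under hyperoxia, at 20.1 against 34.0 CPM. The part of these differences in the hyperoxia results was not tested.

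By counts, edgeR called 0 of the members in each of the 5 classes, where 0% of all genes passed, and 0 in all cells, where 0.243% did. At an unadjusted p under 0.05, alveolar fibroblasts had 1 gene (2.68% of all genes), adventitial fibroblasts 2 (8.01%), myofibroblasts 4 (6.33%), airway smooth muscle 1 (3.1%), vascular smooth muscle 0 (2.57%) and all cells 5 (12.3%). DESeq2 called 1 in alveolar fibroblasts (1.44% of all genes), 0 in adventitial fibroblasts (3.24%), 2 in myofibroblasts (3.18%), 1 in airway smooth muscle (1.11%), 0 in vascular smooth muscle (1.98%) and 2 in all cells (5.31%). These included Eln in myofibroblasts (DESeq2 adjusted p = 0.0353) and in airway smooth muscle (DESeq2 adjusted p = 0.039).

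Whether hyperoxia went with different changes in different classes was tested with an interaction term, with the mouse as a block. Relative to alveolar fibroblasts, the hyperoxia difference of Eln was lower by 1.81 on the log2 scale in myofibroblasts (SE 0.20, unadjusted p = 0.000116, adjusted p = 0.144) and by 1.74 in airway smooth muscle (SE 0.31, unadjusted p = 0.00109, adjusted p = 0.569). For Mfap4 in myofibroblasts the interaction was -1.30 (SE 0.12, adjusted p = 0.0841), for Fbln5 in airway smooth muscle -2.41 (SE 0.26, adjusted p = 0.0997), and for Efemp1 in adventitial fibroblasts -3.38 (SE 0.42, adjusted p = 0.547). None of these passed. EdgeR called 0 of 10 members in myofibroblasts against alveolar fibroblasts (0.013% of all genes), 0 in airway smooth muscle (0.0132%) and 0 in adventitial fibroblasts (0%). At an unadjusted p under 0.05 there were 5 (5.82%), 2 (4.81%) and 2 (6.83%), and DESeq2 called 1 (3.34%), 2 (2.12%) and 1 (4.5%), with Eln among its calls in the first and second comparisons.

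The genes that cross-link, anchor or regulate elastic fibres were counted from a list of 24 others. From P7 to P21 over all cells, 6 of the 24 rose and 3 fell, where 5.39% of all genes were called upward and 4.58% downward. Adamtsl2, a microfibril-binding ADAMTS-like protein, rose by 3.28 on the log2 scale (18.1 to 38.1 CPM at P7, 167 to 304 CPM at P21, adjusted p = 0.0015), and Adamtsl5 rose by 3.22 (adjusted p = 0.00238). Tgfbi, a matrix protein of myofibroblasts, fell by 2.73 (2285 to 2978 CPM, then 283 to 402 CPM, adjusted p = 0.0037), and Ltbp4, a latent TGF-beta binding protein that interacts with fibulin-5, rose by 1.97 (adjusted p = 0.00164). Since no cell at P21 was labelled myofibroblast, the mix of cells differed between these sums, and its part in the results was not tested. In airway smooth muscle over the same interval 1 of 24 rose and 4 fell (1.13% of all genes called in either direction, 0.393% downward), with Ltbp2 down by 3.74 (1350 to 1706 CPM, then 88.7 to 89.0 CPM, adjusted p = 0.00379), Tgfbi down by 3.20 (adjusted p = 0.00563) and Hmcn1 down by 2.01 (932 to 1078 CPM, then 188 to 202 CPM, adjusted p = 0.0207). Emilin3, an elastin-associated glycoprotein, had 4150 reads at P7 and 0 at P21 in that class (adjusted p = 0.0178). The airway libraries held about 102847000 and 62487800 reads at P7 against 54141300 and 48301900 at P21.

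From E18.5 to P1, 2 of the 5 lysyl oxidases on the list, Lox and Loxl1, were called over all cells, in opposite directions. Lox, the lysyl oxidase that cross-links elastin and collagen, fell by 1.85 (564 to 725 CPM, then 149 to 191 CPM, adjusted p = 0.013), while Loxl1, its elastin-directed relative, rose by 1.85 (136 to 141 CPM, then 456 to 492 CPM, adjusted p = 0.0118). Mfap5, a microfibril protein related to Mfap2, rose by 4.53 (29.3 to 64.4 CPM, then 643 to 1273 CPM, adjusted p = 0.00412), and Adamtsl2 fell by 2.74 (adjusted p = 0.0119). Hmcn1, hemicentin-1, a fibulin relative, rose by 1.94 (62.4 to 66.9 CPM, then 212 to 261 CPM, adjusted p = 0.00412). In all, 3 of the 24 rose and 2 fell there, against 1.23% of all genes called in either direction, of which Loxl1 had the smallest change and is named although the naming rule covers the 4 largest. In alveolar fibroblasts 3 rose and 1 fell, against 6.16% of all genes called and a median log2 change over all genes of 1.35, with Loxl1 up by 1.91 (adjusted p = 0.0312), Hmcn1 up by 5.05 (adjusted p = 0.0284) and Lox down by 2.10 (adjusted p = 0.0352). Adamtsl4 had 0 reads at E18.5 and 5517 at P1 (adjusted p = 0.0346). These read numbers are not levels, since depth differed. The alveolar libraries held about 3124000 and 13571700 reads at E18.5 against 215726000 and 380642000 at P1. In adventitial fibroblasts, with 0.17% of all genes called, Emilin2 rose, from 2 reads to 7136 (adjusted p = 0.0177), and Lox fell by 1.84 (adjusted p = 0.0427). The adventitial libraries held about 24675600 and 27180700 reads at E18.5 against 90085100 and 67129200 at P1. In the other age comparisons, the hyperoxia comparisons and the interactions none of the list was called by edgeR.

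Likeness of pattern was measured as Pearson's r of log2(CPM + 1) over the 64 libraries of a mouse and subtype with at least 10 cells, which share mice and depth, among 9441 genes. The 5 genes most like Eln were Daam1 (r = 0.848), Ltbp1 (0.830), Apoe (0.818), Mgp (0.812) and Loxl1 (0.810). Fbn1 was most like Col1a2 (0.815) and Vkorc1 (0.814), Fbn2 like Mex3a (0.796) and Prelid1 (0.753), Mfap2 like Sh3bgrl3 (0.912) and Ssr2 (0.887), and Mfap4 like Unc5c (0.850) and Tmem119 (0.845). Among the fibulins, Fbln1 was most like Cd34 (0.816) and Cygb (0.793), Fbln2 like Gxylt2 (0.816) and Igfbp2 (0.744), and Fbln5 like Vgll3 (0.798) and Spon1 (0.797). Efemp1 was most like Faim2 (0.841) and Igfbp6 (0.838), and Efemp2 like Ifitm2 (0.879) and Pdia3 (0.849). Within the 10 genes the highest values were between Efemp2 and Mfap2 (0.778) and between Fbn1 and Efemp2 (0.726). Eln was nearest to Mfap4 (0.570) and far from Mfap2 (0.172), and Fbn2 and Efemp1 had a negative value (-0.19).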

How the data were processed

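The deposited table held whole-number read counts per gene and cell, not normalized. The submitters' processing notes name STAR 2.5.2b and HTSeq 0.10 as the authors' tools, without their settings, and give GRCh38, a human build name, for this mouse series, so no coordinates were taken from the counts. Cells carried no molecular identifiers. The mouse, cell subtype, group and run of each cell came from the labels.

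Counts were summed per mouse and subtype, or per class (early and mature subtypes joined), where a mouse had at least 10 cells. Levels are CPM of those sums, per kilobase of GENCODE M21 exons where stated. Each class was fitted with edgeR 4.0.16 in R 4.3.3 (quasi-likelihood test, TMM, filterByExpr, terms for sex and group, two-sided), with Benjamini-Hochberg adjustment over all genes tested at a threshold of 0.05. Each fit had between 6 and 10 libraries, which left from 2 to 4 residual degrees of freedom. Standard errors are the log2 change divided by the root of the F statistic. DESeq2 1.42.0 was an alternative. The interaction fits had the mouse as block. The labels name 10 separate mice and nothing of litters, so p-values measure the spread between these animals only. The scripts were tested on simulated data.

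All 10 members are named. Of the 24 other elastic fibre genes, up to 4 past the threshold per comparison are named, those with the largest change. For likeness, the 5 most alike genes are named for Eln and 2 for each other member. The members, lists and tests were chosen with earlier results of these data known. Alternatives were size factors with DESeq2, no filter on low counts, no sex term, 1 fit of all classes, no CD31 or CD45 sort cells, the first plate of the hyperoxic male, and leaving out each mouse. Hyperoxic pericytes, at 5 and 3 cells, were not analysed.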

Additional observations from a re-analysis of the deposited data

Results flagged for a closer look

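In 11 cases the same gene differed between ages in opposite directions in 2 classes, with both mice of each class on the same side, a difference of at least 1 on the log2 scale in each class and a mean of at least 10 CPM. None of these differences between classes was tested. The rule was applied to the members only, so the share of all genes that meet it is not known. Cases of the same gene reuse the same class values, so they are not independent. Values are mean changes in log2(CPM + 1), and the difference is between the classes.

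Elastin gave 8 of them. From P1 to P7, Eln differed by 1.39 in airway smooth muscle and 1.88 in myofibroblasts, against -1.38 in alveolar fibroblasts and -3.86 in pericytes. The differences were 2.77 for airway smooth muscle against alveolar fibroblasts, 5.25 against pericytes, 3.26 for myofibroblasts against alveolar fibroblasts, and 5.74 against pericytes. From P7 to P21 the signs were the other way round, with 2.90 in alveolar fibroblasts and 3.19 in pericytes against -1.84 in airway smooth muscle and -1.32 in vascular smooth muscle. The alveolar difference was 4.74 from airway smooth muscle and 4.21 from vascular smooth muscle, and the pericyte difference 5.03 and 4.51.

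The microfibril genes gave 3, all from P1 to P7. Fbn2 differed by 1.84 in pericytes and -1.10 in adventitial fibroblasts, a difference of 2.94. Mfap4 differed by 1.92 in airway smooth muscle and 1.07 in vascular smooth muscle against -5.23 in pericytes, differences of 7.15 and 6.31.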

How the results depend on the processing

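Of 125 counts of called members under alternatives other than leaving out a mouse, 94 kept within 1.5 times the first count and 31 did not. DESeq2, which called many more genes overall (1085 against 11 for alveolar fibroblasts from P7 to P21), gave most of these. From E18.5 to P1 it called 1 member in adventitial fibroblasts, 1 in pericytes and 2 in all cells. From P1 to P7 it called 1 in adventitial fibroblasts, 2 in pericytes, 3 in myofibroblasts, 2 in airway smooth muscle and 2 in all cells. From P7 to P21 it called 5 in alveolar fibroblasts, 3 in adventitial fibroblasts, 1 in pericytes, 7 in airway smooth muscle and 5 in vascular smooth muscle. For hyperoxia it called 1 in alveolar fibroblasts, 2 in myofibroblasts, 1 in airway smooth muscle and 2 in all cells, and for the interactions 1 in myofibroblasts, 2 in airway smooth muscle and 1 in adventitial fibroblasts. Without a filter on low counts there were 1 in adventitial fibroblasts, 1 in pericytes and 4 in vascular smooth muscle from P7 to P21, and 2 in pericytes and 1 in myofibroblasts from P1 to P7. With all classes in 1 fit there were 2 in pericytes and 1 in myofibroblasts from P1 to P7, 1 in pericytes from P7 to P21, and 0 in alveolar fibroblasts from E18.5 to P1. That last count was also 0 without the CD31 and CD45 sort cells. The causes were not tested.

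Sex numbered the replicates. Female-minus-male differences correlated between groups from -0.09 to 0.257 over 10 pairs of groups, above 0.1 in 3 of them and highest between P7 and P21 normal, so the numbers did not pair the mice in every pair of groups. With no replicate block for sex, all cells from E18.5 to P1 gave 2 members, and Eln in airway smooth muscle from P7 to P21 was called (adjusted p = 0.0345).

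Leaving out each mouse in turn gave 0 to 3 members in alveolar fibroblasts and 0 to 2 in all cells from E18.5 to P1. From P7 to P21 it gave 0 to 4 in alveolar fibroblasts, 0 to 1 in adventitial fibroblasts, 2 to 5 in all cells, 2 to 4 in airway smooth muscle and 0 to 3 in vascular smooth muscle. Myofibroblasts gave 0 to 3 from P1 to P7 and 0 to 3 for hyperoxia, and the interactions 0 to 1 in myofibroblasts and 0 to 2 in adventitial fibroblasts. The other comparisons gave 0 to 0. Where an arm then held 1 mouse, it was assumed to vary like the other groups. Eln under hyperoxia in alveolar fibroblasts ran from -0.036, a reversal, without the hyperoxic male to 1.02 without the hyperoxic female. The first-plate alternative was not run in airway smooth muscle, nor a fit without the block for the interactions, where the mouse is the block.

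Depth limits Fbn2, Fbln2 and Efemp1 most, since in some classes a whole group of mice held from 0 to 26 of their reads. With 2 mice per group, a difference that misses the threshold does not show that levels were alike.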
